A study of Mus musculus with 10 samples.

Results

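The ERBB family of receptor tyrosine kinases and the ligands of its founding member were followed here in human breast cancer cells that were grown in mice as xenografts and taken by laser capture. Members were taken by gene symbol from a list of 9 genes: the receptors EGFR, ERBB2, ERBB3 and ERBB4 and the ligands AREG, EREG, TGFA, HBEGF and BTC. A probe set, the group of oligonucleotides that reads out 1 target on the array, was used where the annotation gave it exactly 1 symbol. By this rule 36 probe sets of 8 of the 9 genes were found among 44532 probe sets of 19556 genes. EGFR had 8 probe sets, ERBB2 had 6, ERBB3 had 8, ERBB4 had 4, TGFA and HBEGF had 3 each, and EREG and BTC had 2 each. No probe set carried the symbol AREG in the annotation table used here, so amphiregulin was not analysed here. Of the 36 probe sets, 33 passed a filter on low signal and were tested.

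The arrays came from estrogen receptor positive human breast cancer cells, of a line the labels do not name, grown in female nu/nu mice, a strain without a thymus and therefore without mature T cells. The 20-week-old hosts all carried an estrogen pellet at first; it stayed in the group called E and was taken out 1 week before sampling in the group called EWD. Tumor cells were captured from frozen sections of lymph node metastases and of primary tumors, and PCR amplification of their RNA preceded labelling. There were 3 lymph node E arrays (mice 6, 11 and 14), 3 lymph node EWD arrays (mice 9, 10 and 19), 2 primary tumor E arrays (mice 11 and 14) and 2 primary tumor EWD arrays (mice 10 and 19), so that 4 of the 6 mice gave both sites. Every array is 1 capture of 1 site in 1 mouse, and with 2 or 3 arrays a group the number of arrays limits the precision of every value.

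As background, ERBB receptors sit in the plasma membrane and pair with one another when a ligand binds, which starts the kinase activity that feeds the RAS-MAPK and PI3K-AKT pathways. EGFR binds AREG, EREG, TGFA, HBEGF and BTC, of which EREG, HBEGF and BTC also bind ERBB4. ERBB2 has no known ligand of its own and serves as the preferred partner of the others, while ERBB3 has weak kinase activity and depends on a partner. The ligands are made as membrane-anchored precursors that proteases release. In estrogen receptor positive breast cancer these receptors have been studied as a growth input beside estrogen.

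Values are the authors' deposited log2 signals; the lowest value on any array was 1.37. A level of 1 probe set is not set against that of another, because probe sets differ in how strongly they bind. The array medians lay between 2.72 and 2.83, but the 99th percentile was 9.44 and 10.04 on the primary tumor E arrays of mice 11 and 14 and lay between 11.39 and 11.67 on the other 8 arrays. Accordingly, over all probe sets with a mean above 10, the median difference of E minus EWD in primary tumors was −1.91, while it was −0.02 over all tested probe sets. Differences are therefore also given after quantile normalization, which gives all arrays the same distribution. The mean of 18 hybridization control probe sets, which read RNA added at hybridization and not the cells, split the arrays into a low side (9.47 to 10.59, 6 arrays) and a high side (12.04 to 12.47, 4 arrays). Both primary tumor E arrays were on the low side and both primary tumor EWD arrays on the high side, so this split and the pellet state cannot be told apart within primary tumors. Among markers of other cells, 6 of 10 fibroblast and 7 of 10 leukocyte genes stayed below 4 on all 10 arrays, COL1A2, VIM, PTPRC and LYZ among them, as did 5 of 6 adipocyte, 5 of 7 skeletal muscle, 3 of 8 endothelial and 2 of 6 keratinocyte genes. The remaining genes of these classes reached 4 on at least 1 array. Host cells are mouse cells and the arrays are human, so low values cannot show that host cells were absent. The 10 luminal epithelial markers, the class such tumor cells belong to, were all above 4 on at least 1 array and had array means of 8.37 to 9.32 in lymph node E, 9.84 to 10.25 in lymph node EWD, 7.72 to 7.73 in primary tumor E and 9.79 to 9.89 in primary tumor EWD.

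**Figure D1:**
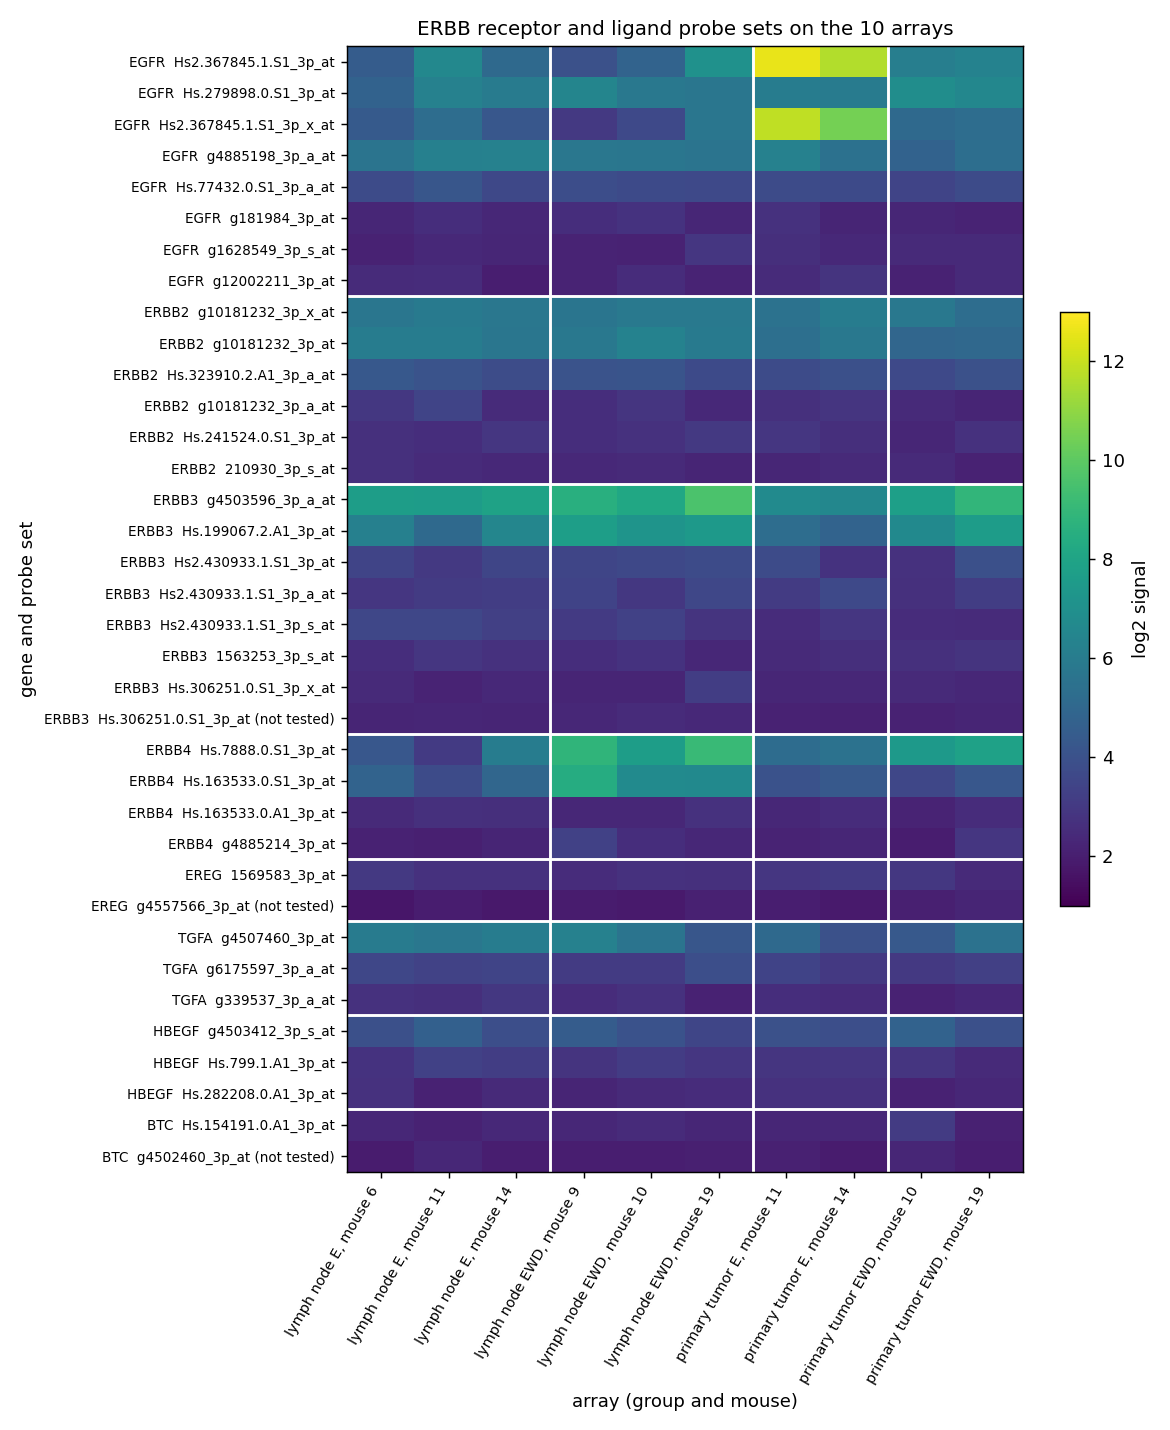
Heat map of the deposited log2 signal of the 36 probe sets (vertical axis, grouped by gene) on the 10 arrays (horizontal axis, grouped by site and pellet state), with colour giving the log2 signal. The EGFR probe sets Hs2.367845.1.S1_3p_at and Hs2.367845.1.S1_3p_x_at stand out on the primary tumor E arrays, and ERBB4 probe set Hs.7888.0.S1_3p_at is highest on the EWD arrays.

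EGFR gave the widest range of the family. Of its 8 probe sets, 2 that share a target read far higher in primary tumors with the pellet than in every other sample. None of the other 6 probe sets was called. Whether the target of the pair is the receptor transcript itself was not checked. The probe set Hs2.367845.1.S1_3p_at, designed on the sequence AF277897, read 12.58 and 11.64 on the primary tumor E arrays of mice 11 and 14, against 6.15 and 6.33 on the primary tumor EWD arrays of mice 10 and 19. In lymph nodes the same probe set read 4.50, 6.61 and 5.10 with the pellet in mice 6, 11 and 14, and 3.97, 4.83 and 7.08 after withdrawal in mice 9, 10 and 19. The primary tumor E arrays thus lay above all 8 others with no overlap, and the lymph node groups overlapped.

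Its mean was 12.11 ± 0.67 (SD, n = 2) in primary tumor E and 6.24 ± 0.13 (SD, n = 2) in primary tumor EWD. The difference of 5.87 (SE 0.98, 95% interval 3.64 to 8.10), a 58.4-fold difference in signal, passed the limma test with an adjusted p of 0.022. In lymph nodes the difference was 0.11 (interval −1.71 to 1.94), with a limma adjusted p of 0.996. Each array reads captured cells together, so a change in the share of cells of a type and in RNA per cell cannot be told apart.

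Probe set Hs2.367845.1.S1_3p_x_at followed the same pattern, at 11.84 and 10.48 on the primary tumor E arrays, 5.09 and 5.29 on the primary tumor EWD arrays and 3.01 to 5.70 on the 6 lymph node arrays. It rose by 5.94 (SE 0.83, interval 4.06 to 7.83) in primary tumors with the pellet, with a limma adjusted p of 0.0151. The shared stem of their names marks a common target, so the 2 probe sets are not independent readings; their correlation over the 10 arrays was 0.99. The suffix x_at marks a probe set whose oligonucleotides may also bind other transcripts.

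Compared between sites under the pellet, both probe sets were lower in lymph nodes, by a log2 difference of −6.73 (SE 0.91, limma adjusted p 0.00868) and −6.52 (SE 0.77, limma adjusted p 0.00802). Within mouse 11 the lymph node minus primary tumor difference of Hs2.367845.1.S1_3p_at was −5.98, and within mouse 14 it was −6.54. After withdrawal it was −1.32 in mouse 10 and 0.75 in mouse 19, so the 2 mice of that group differed in sign. In mouse 10 the lymph node array was on the low side of the hybridization controls and the primary tumor array on the high side. Both arrays of mouse 19 were on the high side. The difference between the responses of the 2 sites was −5.75 (interval −8.69 to −2.81) for Hs2.367845.1.S1_3p_at and −5.41 (interval −7.89 to −2.93) for the x_at probe set. Neither passed the adjustment over all probe sets, at limma adjusted p of 0.211 and 0.202. Without the lymph node E array of mouse 11 both passed, each at 0.0319, and so did they with the hybridization control split as a covariate (0.00144 and 0.00228), a setting chosen after seeing the data under which 4411 of all 35191 tested probe sets passed in this comparison.

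After quantile normalization the primary tumor differences of the pair were 6.95 and 7.19 (limma adjusted p 0.0387 and 0.021). On the low side of the hybridization controls, 4 lymph node arrays read between 3.97 and 5.10 for Hs2.367845.1.S1_3p_at. On the high side, the lymph node arrays of mice 11 and 19 read 6.61 and 7.08, and the primary tumor EWD arrays 6.15 and 6.33. The x_at probe set read 3.01 to 4.38 on those 4 low-side arrays. On the same high-side arrays it read 5.30, 5.70, 5.09 and 5.29. The cause of this difference between the sides was not tested. The 7 basal epithelial markers, a class of cells known to carry EGFR, had array means of 4.67 to 5.13 in primary tumor E and 3.84 to 4.64 in primary tumor EWD, against 4.17 to 5.25 in lymph node E and 4.08 to 4.51 in lymph node EWD. KRT5, 1 of the 7, was named after its values were seen and does not stand for the class. It averaged 7.02 ± 0.99 (SD, n = 2) in primary tumor E and 4.35 ± 1.82 (SD, n = 2) in primary tumor EWD. In lymph nodes it averaged 4.28 ± 1.69 (SD, n = 3) with the pellet and 3.19 ± 0.40 (SD, n = 3) after withdrawal. Of the 7 markers, 5 were higher and 2 lower with the pellet in primary tumors, with a median difference of 0.39. Between sites under the pellet 3 were higher and 4 lower in lymph nodes, with a median of −0.07. None was called in either comparison, and 2 of the 7 stayed below 4 on all arrays. The 6 keratinocyte markers, another class that carries EGFR, had array means of 4.86 to 5.12 and 3.91 to 4.54 in primary tumor E and EWD, and of 5.80 to 6.00 and 4.40 to 5.72 in lymph node E and EWD. The part of these markers in the result was not tested. The primary tumor calls compare 2 arrays with 2. The calls between sites under the pellet compare 3 lymph node arrays with 2 primary tumor arrays.

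The primary tumor difference of Hs2.367845.1.S1_3p_at lost its call without any 1 of the 4 primary tumor arrays (limma adjusted p 0.0614 to 0.126) and without the lymph node EWD array of mouse 10 (0.0519). That of the x_at probe set lost it without the primary tumor E array of mouse 11 (0.0961) or the EWD array of mouse 10 or 19 (0.0723 and 0.0917). Between sites under the pellet both calls were lost without the primary tumor E array of mouse 11 (0.0671 and 0.0541). With mouse as a fixed block, which leaves mice 11 and 14 as the 2 pairs, those differences were −6.26 and −6.37 (limma adjusted p 0.167 for both), and with only the arrays of those groups the limma adjusted p was 0.0902 for both.

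The other EGFR probe sets gave no called difference. Probe set g4885198_3p_a_at, designed on the receptor's reference transcript NM_005228, read 6.26 and 5.46 in primary tumor E, 4.75 and 5.33 in primary tumor EWD, 5.61, 6.21 and 6.28 in lymph node E, and 5.74, 5.70 and 5.63 in lymph node EWD. Its primary tumor groups did not overlap, but the difference of 0.83 (interval 0.05 to 1.61) missed the threshold at a limma adjusted p of 0.211. After quantile normalization it was 1.34 (0.143). Probe set Hs.279898.0.S1_3p_at read 6.06 and 6.00 in primary tumor E and 6.87 and 6.57 in primary tumor EWD, a difference of −0.66 (interval −1.72 to 0.41) that became 0.04 after quantile normalization. The remaining 4 lay low on every array, with Hs.77432.0.S1_3p_a_at between 3.48 and 4.22 and g181984_3p_at, g1628549_3p_s_at and g12002211_3p_at between 1.99 and 2.90. Over the 10 arrays, which all probe sets share, the correlation of Hs2.367845.1.S1_3p_at with the 6 probe sets outside its pair ranged from 0.01 to 0.53. After quantile normalization it ranged from −0.05 to 0.63, the correlations with Hs.279898.0.S1_3p_at and g4885198_3p_a_at going from 0.08 and 0.14 to 0.56 and 0.63.

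The 3 genes whose probe sets tracked Hs2.367845.1.S1_3p_at most closely over the 10 arrays were CARD16 (Pearson correlation 0.999), OR7E2P (0.994) and VSX1 (0.993). With a pattern carried by 2 high arrays, such values describe those arrays more than the other 8. VOPP1 and LANCL2, which lie next to EGFR on the human chromosome, were both tested, and neither was called in any of the 6 comparisons.

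**Figure D2:**
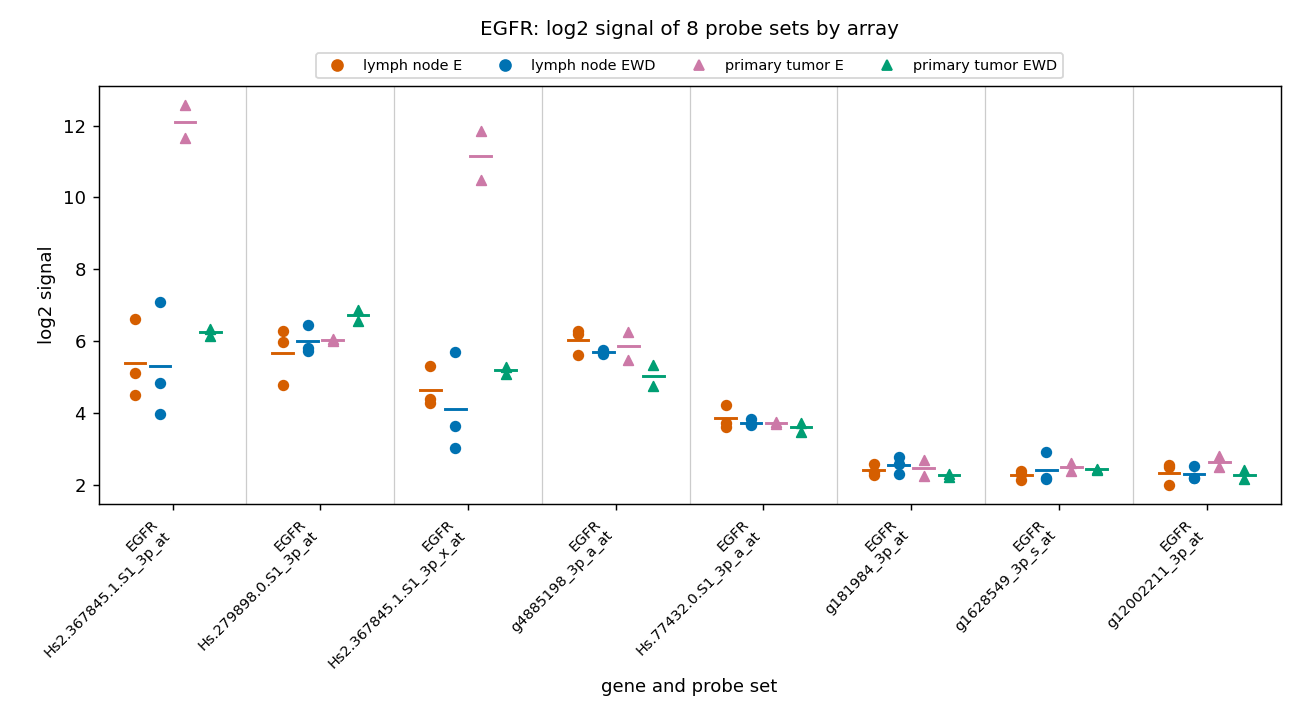
Log2 signal (vertical axis) of the 8 EGFR probe sets (horizontal axis) on each array, with points for arrays and lines for group means. The primary tumor E arrays read 12.58 and 11.64 for Hs2.367845.1.S1_3p_at and 11.84 and 10.48 for Hs2.367845.1.S1_3p_x_at, and lie near the other groups for the other 6 probe sets.

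ERBB2, the partner receptor whose gene is amplified in a class of breast cancers, showed no called difference on any of its 6 probe sets. Probe set g10181232_3p_x_at read 5.69, 5.92 and 5.75 in lymph node E, 5.68, 5.83 and 5.86 in lymph node EWD, 5.52 and 6.02 in primary tumor E, and 5.81 and 5.28 in primary tumor EWD. The groups overlapped at both sites, and the lymph node difference was 0.00 (SE 0.21, interval −0.48 to 0.47). Probe set g10181232_3p_at read 6.02, 6.06 and 5.73 in lymph node E and 5.81, 6.33 and 5.95 in lymph node EWD, against 5.39 and 5.82 in primary tumor E and 4.96 and 5.04 in primary tumor EWD. Its primary tumor EWD arrays were the lowest of the 10. In primary tumors the difference of 0.60 (interval 0.02 to 1.17) missed the threshold at a limma adjusted p of 0.223, and after quantile normalization it was 1.06 (0.161). The primary tumor difference of g10181232_3p_x_at was 0.22 and became 0.76 (0.293). After withdrawal the lymph node level of g10181232_3p_at was higher by 1.02 (interval 0.49 to 1.56), which missed the threshold at a limma adjusted p of 0.246. For g10181232_3p_x_at that difference was 0.24 (interval −0.30 to 0.78). The other 4 ERBB2 probe sets lay between 2.15 and 4.31 on every array. The 2 leading probe sets share a target and their correlation over the 10 arrays was 0.57. Designed on the same sequence were g10181232_3p_a_at, which lay between 2.22 and 3.45, and 210930_3p_s_at, between 2.15 and 2.65.

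Of the genes around ERBB2 on its chromosome, often gained together with it, 13 were tested. Only MIEN1, the gene next to ERBB2, was called, and only between sites under the pellet, where it was higher in lymph nodes by 2.20; after quantile normalization that difference was 0.70. The median of the 13 genes in that comparison was 0.91, against 0.15 over all tested probe sets. After quantile normalization these were 0.42 and 0.04. Over probe sets with a mean above 10 the median of the deposited values was 1.88.

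ERBB3, the receptor with weak kinase activity that couples ERBB dimers to PI3K, read lower with the pellet than after withdrawal on its 2 leading probe sets, on every array of each site. Probe set Hs.199067.2.A1_3p_at read 6.22, 5.12 and 6.50 in lymph node E and 7.73, 7.21 and 7.48 in lymph node EWD. In primary tumors it read 5.27 and 4.81 with the pellet and 6.71 and 7.65 after withdrawal. The E and EWD groups did not overlap at either site. The means were 5.95 ± 0.73 (SD, n = 3) and 7.47 ± 0.26 (SD, n = 3) in lymph nodes and 5.04 ± 0.33 (SD, n = 2) and 7.18 ± 0.66 (SD, n = 2) in primary tumors.

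In primary tumors it fell by 2.14 with the pellet (SE 0.48, interval −3.23 to −1.05, 4.40-fold), with a limma adjusted p of 0.0469. In lymph nodes the difference was −1.53 (SE 0.39, interval −2.41 to −0.64), with a limma adjusted p of 0.6. Averaged over both sites it was −1.83 (SE 0.30, 3.56-fold), with a limma adjusted p of 0.0247, a call kept without 4 of the arrays (the lymph node E arrays of mice 11 and 14, the lymph node EWD array of mouse 19 and the primary tumor EWD array of mouse 10) and lost without any 1 of the other 6 (0.0539 to 0.108). The responses of the sites differed by 0.61 (interval −0.82 to 2.04, limma adjusted p 0.856).

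Probe set g4503596_3p_a_at, designed on the ERBB3 reference transcript NM_001982, gave the same order. It read 7.68, 7.61 and 7.93 in lymph node E, 8.57, 8.14 and 9.59 in lymph node EWD, 6.72 and 6.54 in primary tumor E, and 7.79 and 8.92 in primary tumor EWD. No E array reached an EWD array of the same site, yet the differences of −1.03 in lymph nodes, −1.73 in primary tumors and −1.38 averaged missed the threshold, at limma adjusted p of 0.948, 0.0946 and 0.0521. The averaged difference passed under 5 of 16 alternatives (lowest limma adjusted p 0.0399) and the primary tumor one under 2 of 17 (lowest 0.0477). The correlation between the 2 probe sets over the 10 arrays was 0.88.

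The scale of the arrays bears on ERBB3. After quantile normalization the primary tumor difference of Hs.199067.2.A1_3p_at was −1.64 (limma adjusted p 0.0913, no longer called) and the averaged one −1.50 (0.0322). For g4503596_3p_a_at the primary tumor difference shrank to −0.81 and the averaged one to −0.83. The primary tumor call of Hs.199067.2.A1_3p_at was kept only when the left-out array was the lymph node E array of mouse 11 (limma adjusted p 0.00702) or of mouse 14 (0.0345), and was lost without any 1 of the other 8. Within the low side of the hybridization controls, where lymph nodes held 2 E and 2 EWD arrays, its lymph node difference was −1.11, and on the high side, with 1 array each, it was −2.36. The mean of the luminal markers moved with it, being lower with the pellet at both sites in the array means given above. In primary tumors 9 of the 10 were lower with the pellet and 4 were called lower, where 1233 of all 35191 tested probe sets were. The median of the 10 was −2.67. After quantile normalization 1 of the 10 was called lower, where 103 of all tested probe sets were, and the median was −1.15. The part of these markers in the result was not tested. The 5 other tested ERBB3 probe sets lay between 2.20 and 3.92 and none was called, and Hs.306251.0.S1_3p_at did not pass the filter.

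ERBB4, a neuregulin receptor with its own kinase activity, also read higher after withdrawal on its leading probe set. Probe set Hs.7888.0.S1_3p_at read 4.28, 3.05 and 6.03 in lymph node E, against 8.85, 7.68 and 9.15 in lymph node EWD. In primary tumors it read 5.23 and 5.51 with the pellet and 7.47 and 7.85 after withdrawal. All 5 EWD arrays lay above all 5 E arrays. The means were 4.46 ± 1.50 (SD, n = 3) and 8.56 ± 0.78 (SD, n = 3) in lymph nodes and 5.37 ± 0.20 (SD, n = 2) and 7.66 ± 0.27 (SD, n = 2) in primary tumors. Averaged over both sites, it fell by 3.19 with the pellet (SE 0.53, interval −4.40 to −1.98, 9.12-fold), with a limma adjusted p of 0.0251. Neither site passed alone: the difference was −4.10 (interval −5.67 to −2.54, limma adjusted p 0.282) in lymph nodes and −2.27 (interval −4.19 to −0.36, limma adjusted p 0.17) in primary tumors. The responses of the sites differed by −1.83 (interval −4.35 to 0.69, limma adjusted p 0.733).

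The averaged difference held after quantile normalization, at −2.80 (limma adjusted p 0.0377). It was kept without the lymph node E array of mouse 11 (0.0115) or 14 (0.00752) or the lymph node EWD array of mouse 19 (0.0331), and lost without any 1 of the other 7 (limma adjusted p 0.0503 to 0.126). The primary tumor difference passed when the lymph node E array of mouse 11 (0.0459) or 14 (0.0498) was left out of the fit, and with only the primary tumor arrays fitted (0.00848). Within the low side of the hybridization controls the lymph node difference was −3.11 and on the high side −6.10. As for ERBB3, the mean of the luminal markers was lower with the pellet at both sites, and their part in the result was not tested.

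A second ERBB4 probe set differed by site. Hs.163533.0.S1_3p_at, designed on the sequence AK024204, read 4.82, 3.74 and 4.96 in lymph node E and 8.42, 6.73 and 6.69 in lymph node EWD. In primary tumors it read 4.03 and 4.35 with the pellet and 3.54 and 4.24 after withdrawal. The 3 lymph node EWD arrays lay above the other 7. The lymph node difference of −2.77 (interval −3.94 to −1.61), the site difference after withdrawal of 3.42 (interval 2.09 to 4.75, 10.7-fold) and the difference of responses of −3.09 (interval −4.98 to −1.21) all missed the threshold, at limma adjusted p of 0.325, 0.177 and 0.267. With the hybridization control split as a covariate the site difference passed, at 2.70 (limma adjusted p 0.0373), and so did the difference of E minus EWD averaged over both sites, at −1.75 (0.0117) against −1.23 (0.12) without it. Under that covariate 1252 and 8294 of all 35191 tested probe sets passed in these comparisons. In the mice with both sites after withdrawal, the lymph node exceeded the primary tumor by 3.18 in mouse 10 and 2.45 in mouse 19, while for Hs.7888.0.S1_3p_at these differences were 0.21 and 1.31. The 2 probe sets had a correlation of 0.65 over the 10 arrays.

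Probe set g4885214_3p_at, designed on the ERBB4 reference transcript NM_005235, lay near the bottom of the scale. It read 2.13, 2.05 and 2.25 in lymph node E, 3.33, 2.56 and 2.33 in lymph node EWD, 2.21 and 2.31 in primary tumor E, and 1.96 and 2.92 in primary tumor EWD. Its lymph node EWD arrays were all above its lymph node E arrays, by a smaller step than on the other 2 probe sets. Probe set Hs.163533.0.A1_3p_at lay between 2.18 and 2.71. The genes most like Hs.7888.0.S1_3p_at over the 10 arrays were CLMN (Pearson correlation 0.971), the trefoil peptide gene TFF3 (0.959) and HSD17B11 (0.956). Those most like g4503596_3p_a_at of ERBB3 were ATP1B1 (0.969), ZNF205-AS1 (0.959) and NAIP (0.952). The probe set of ZNF205-AS1 stayed low, at 2.48 to 3.37.

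**Figure D3:**
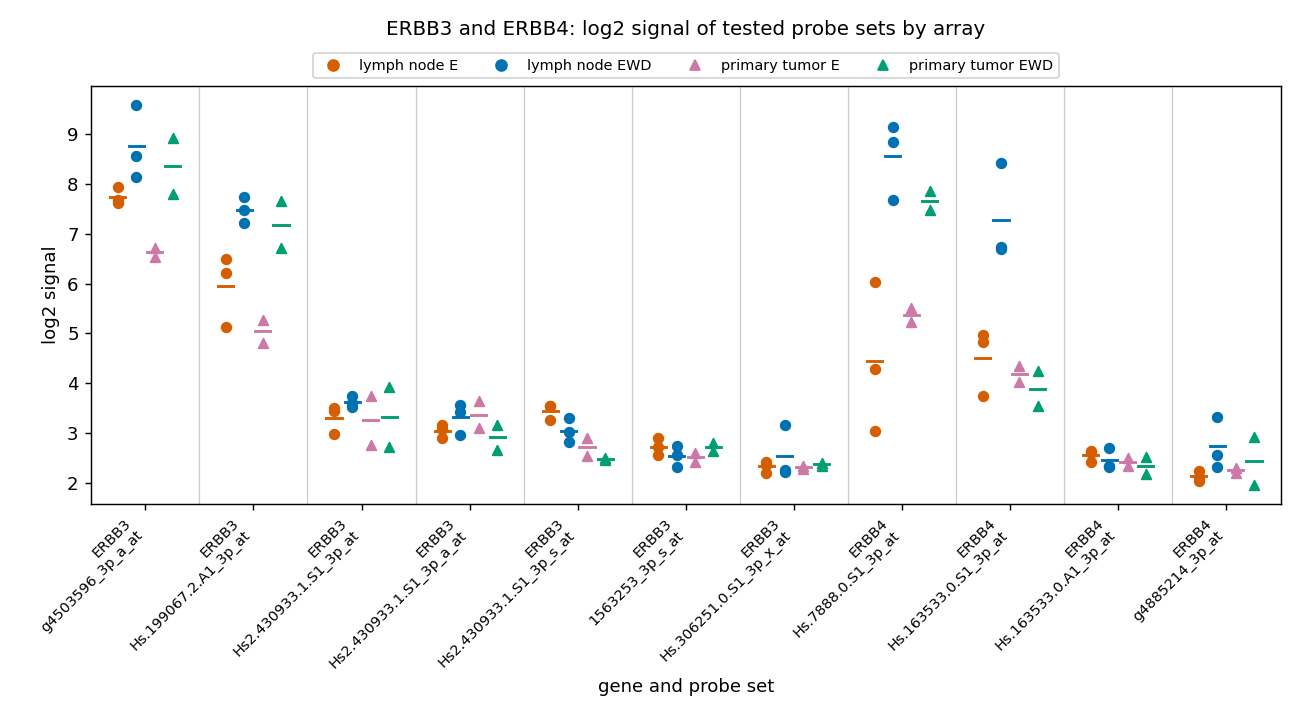
Log2 signal (vertical axis) of the tested ERBB3 and ERBB4 probe sets (horizontal axis) on each array, with points for arrays and lines for group means. EWD arrays lie above E arrays of the same site for ERBB3 Hs.199067.2.A1_3p_at and g4503596_3p_a_at and for ERBB4 Hs.7888.0.S1_3p_at, and ERBB4 Hs.163533.0.S1_3p_at is high on the 3 lymph node EWD arrays.

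None of the ligands was called in any comparison. TGFA, which binds EGFR, was read by g4507460_3p_at at 5.97, 5.77 and 6.02 in lymph node E, 6.27, 5.61 and 4.20 in lymph node EWD, 5.09 and 3.99 in primary tumor E, and 4.37 and 5.51 in primary tumor EWD. The E and EWD groups overlapped at both sites, with differences of 0.56 (interval −0.65 to 1.77) in lymph nodes and −0.37 (interval −1.86 to 1.11) in primary tumors. Under the pellet the lymph node arrays lay above the primary tumor arrays by 1.38, which missed the threshold at a limma adjusted p of 0.28. The genes most like g4507460_3p_at over the 10 arrays were MAPK4 (Pearson correlation 0.952), PHRF1 (0.951) and UFM1 (0.921), and after quantile normalization these correlations were 0.888, 0.384 and 0.881. The probe sets of MAPK4 and UFM1 lay near the bottom of the scale, at 2.00 to 2.64 and 1.57 to 2.95.

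HBEGF, the heparin-binding ligand of EGFR and ERBB4, was read by g4503412_3p_s_at at 3.93, 4.70 and 3.88 in lymph node E, 4.48, 4.01 and 3.52 in lymph node EWD, 3.99 and 3.90 in primary tumor E, and 4.79 and 3.91 in primary tumor EWD. These groups overlapped, with differences of 0.16 (interval −0.62 to 0.95) and −0.39 (interval −1.35 to 0.57). The probe sets of HBEGF did not move together: over the 10 arrays g4503412_3p_s_at and Hs.282208.0.A1_3p_at, which lay between 2.15 and 2.73, had a correlation of −0.76.

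EREG, epiregulin, was read by 1569583_3p_at at 2.41 to 3.05 over the 10 arrays and by g4557566_3p_at, which did not pass the filter, at 1.74 to 2.22. BTC, betacellulin, was read by Hs.154191.0.A1_3p_at at 2.11 to 3.08, its highest value being the primary tumor EWD array of mouse 10, and by g4502460_3p_at, which did not pass, at 1.90 to 2.35. Neither ligand read above 3.08 on any array. Among 6 further ligands of the family, 5 had a named probe set and 3 were tested, with none called. NRG1, a neuregulin that binds ERBB3 and ERBB4, lay between 4.47 and 5.76.

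**Figure D4:**
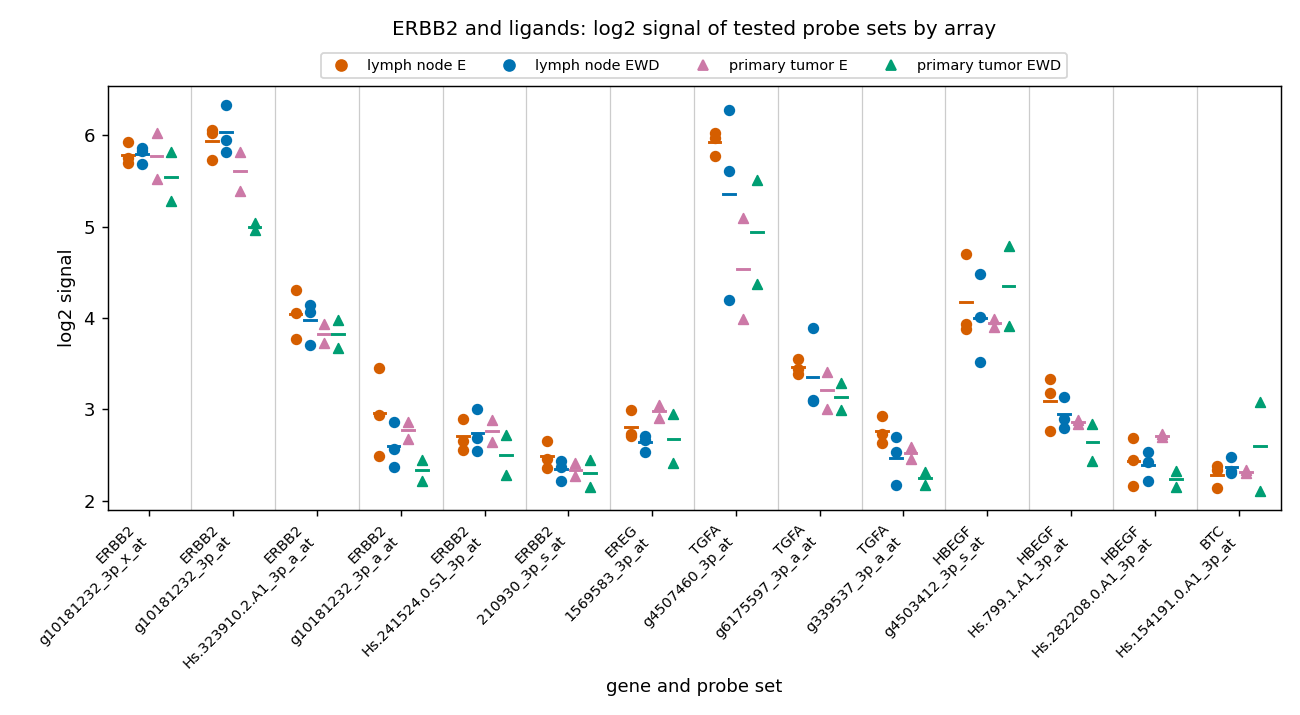
Log2 signal (vertical axis) of the tested probe sets of ERBB2, EREG, TGFA, HBEGF and BTC (horizontal axis) on each array, with points for arrays and lines for group means. The groups overlap for most probe sets; TGFA g4507460_3p_at spans 3.99 to 6.27 and EREG and BTC lie near the bottom of the scale.

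Across the family, calls were few and were read against the share of all 35191 tested probe sets. In lymph nodes, E against EWD called 0 of 33 family probe sets, and the background was 0% by limma with adjustment. At an unadjusted p under 0.05, 4 family probe sets and 1745 of all passed there. The lymph node groups did not overlap for 7 of 33, 1 higher and 6 lower with the pellet, where 9.39% of all probe sets did not. In primary tumors 3 were called, the EGFR pair higher and ERBB3 Hs.199067.2.A1_3p_at lower, with a background of 4.09%. The 2 primary tumor E arrays did not overlap the 2 EWD arrays for 15 of 33, which is fewer than the background share of 55.2% would give. Among all calls in primary tumors, 14.4% were higher with the pellet, but 59.8% after quantile normalization.

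Averaged over both sites 4 were called, the EGFR pair higher and ERBB3 Hs.199067.2.A1_3p_at and ERBB4 Hs.7888.0.S1_3p_at lower, with a background of 3.57%. For the EGFR pair that average joins a large primary tumor difference with lymph node differences of 0.11 and 0.54, and the calls, at 2.99 and 3.24 (limma adjusted p 0.0409 and 0.0233), were lost without any 1 of the 4 primary tumor arrays, the lymph node E array of mouse 6 or the lymph node EWD array of mouse 9 or 10 (limma adjusted p 0.0503 to 0.163). Between sites under the pellet the EGFR pair alone was called, lower in lymph nodes, with a background of 4.77%, and 8 of 33 did not overlap, with a background of 33.9%. After withdrawal 0 of 33 were called between sites (background 0%, with 3 of the family and 3283 of all at an unadjusted p under 0.05), and 5 of 33 did not overlap (background 29.3%). The test of whether the sites responded differently called 0 of 33 (background 0%, with 3 of the family and 3004 of all at an unadjusted p under 0.05). The median difference in primary tumors was 0.13 over the 33 and −0.02 over all, and in lymph nodes 0.04 and −0.01.

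The 21 tested probe sets with a mean below 4 moved little. Their differences of E minus EWD ran from −0.60 to 0.40 in lymph nodes and from −0.28 to 0.47 in primary tumors, with a smallest limma adjusted p of 0.98 and 0.297.

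**Figure D5:**
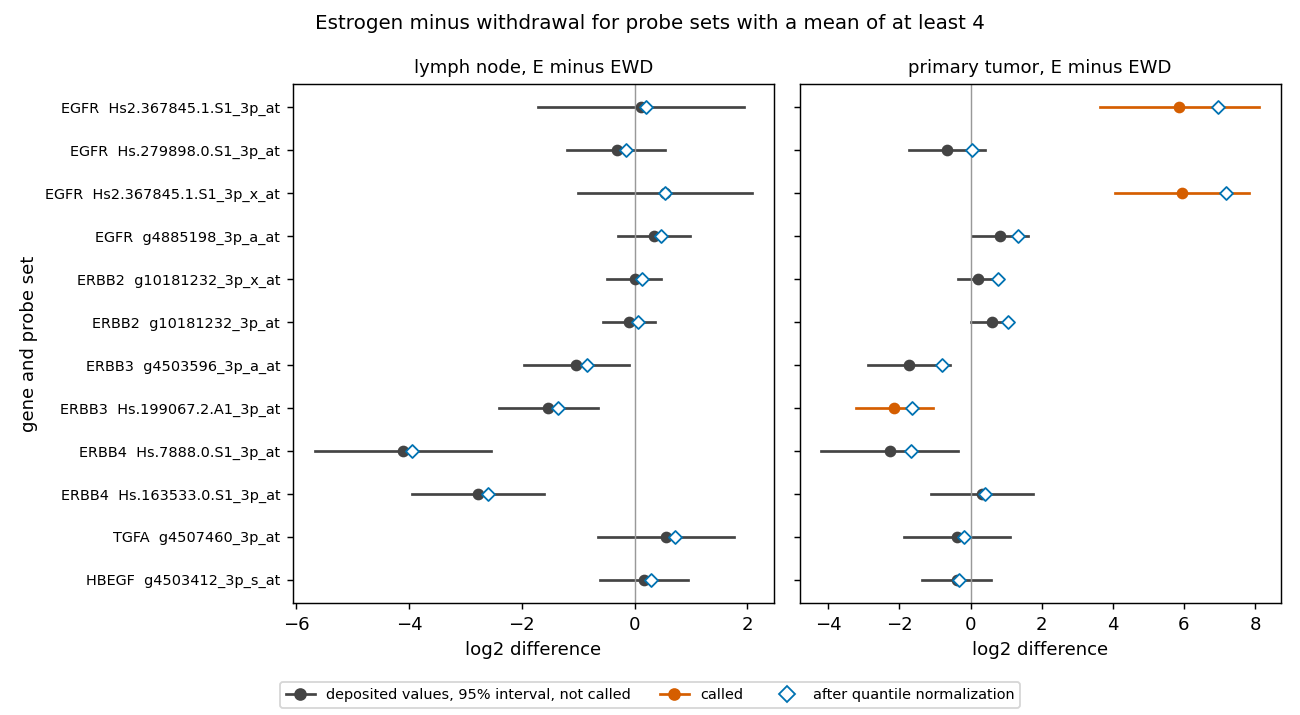
Difference of E minus EWD on the log2 scale (horizontal axis) with its 95% interval for the 12 family probe sets with a mean of 4 or more (vertical axis), in lymph nodes and primary tumors; open diamonds give the difference after quantile normalization and orange marks called differences. The EGFR pair lies at 5.87 and 5.94 for primary tumors against 0.11 and 0.54 for lymph nodes, and ERBB4 Hs.7888.0.S1_3p_at lies at −4.10 in lymph nodes.

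The genes that act with the receptors were counted through 1 probe set each, that of the highest mean, and no list gave a call in lymph nodes alone, between sites after withdrawal or in the difference of responses. Of 11 genes that release or hold back the ligand precursors, 2 fell with the pellet in primary tumors and none rose, where 1233 of all 35191 tested probe sets fell and 207 rose (with 1 probe set per gene, 1191 and 151 of 17170 genes). The list had a median of −1.29, against −0.02 over all probe sets and −1.91 over those with a mean above 10. After quantile normalization the median of the list was −0.24. The 2 that fell were TIMP3, an inhibitor of the releasing proteases, at −3.07 (SE 0.47, limma adjusted p 0.0177), and RHBDF1, a partner of the protease ADAM17, at −1.94 (SE 0.38, limma adjusted p 0.0331). Neither was called in primary tumors after quantile normalization. Averaged over both sites TIMP3 differed by −2.63 and RHBDF1 by −1.52, and RHBDF2, the relative of RHBDF1, was higher by 1.34 (limma adjusted p 0.0377); 3 genes of the list were called in that comparison after quantile normalization too.

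Of 16 tested genes of the adaptors and the RAS-MAPK core, 3 fell with the pellet in primary tumors and none rose, with the same background. Their median of −1.05 became −0.37 after quantile normalization. EPS8, a substrate of EGFR, differed by −3.21 (SE 0.59), GRB2, the adaptor that links receptors to RAS, by −2.28, and NCK1, another adaptor, by −1.95. GRB2 and NCK1 each had 2 other tested probe sets, of which 1 had the same sign in primary tumors. After quantile normalization EPS8 alone was called, at −2.40 (limma adjusted p 0.0472). Averaged over both sites 5 fell, where 1087 of all tested probe sets did, and after quantile normalization 2 did, SOS2 by 2.13 and EPS8 by 1.63 on the log2 scale. Between sites under the pellet 4 genes were higher in lymph nodes, GRB2, MAP2K2, MAPK3 and NCK1, where 1446 of all tested probe sets were higher, and none was called after quantile normalization or with mouse as a fixed block.

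Of 12 PI3K-AKT genes, PIK3R3, a regulatory subunit of PI3K, fell in the average of both sites by 3.15 (SE 0.56, limma adjusted p 0.0287) and by 2.44 after quantile normalization (0.0407). Of the 2 other tested probe sets of PIK3R3, 1 had the same sign in the average. AKT1 was higher in lymph nodes under the pellet by 2.10, which became 0.23 after quantile normalization. AKT2, named after its values were seen, was called in primary tumors only after quantile normalization, at 1.68 (limma adjusted p 0.0467) against −0.10 without it.

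Of 18 tested genes that restrain or turn over the receptors, the phosphatase PTPRK fell with the pellet in primary tumors by 2.01, and the difference was −0.25 after quantile normalization. STUB1, a ubiquitin ligase, was higher in lymph nodes under the pellet by 2.15 (SE 0.33, limma adjusted p 0.0118), which became 0.52 after quantile normalization. Of 19 targets of MAPK signalling, IER3, an immediate early gene, was the 1 called in primary tumors, at −2.94, and in the average, at −2.24. After quantile normalization IER3 was at −1.19 and −1.33 and was not called. MYC, named after its values were seen, was called in the average only after quantile normalization, at 1.76 (limma adjusted p 0.0478) against 1.49 without it. Each pathway call named for primary tumors or the average was lost when at least 1 array was left out; TIMP3 in the average was lost only without the primary tumor E array of mouse 11.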

How the data were processed

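A set of 10 human Affymetrix arrays were used. Their values are log2 signals that the authors deposited; Partek and RMA are named, with no version, per the submitters' processing notes. The annotation was GEO's platform table, in which 44532 of 61359 probe sets had 1 symbol, 1492 had several, 15273 were unnamed here and 62 were controls. Human sequences and coordinates were not used here.

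Probe sets with a mean at or above the 25th percentile (2.31) were tested (35191) with limma 3.58.1 in R 4.3.3: 1 mean for each of 4 groups, mouse as a random block, 6 comparisons, Benjamini-Hochberg adjustment over all tested, calls under 0.05. The correlation within mice was −0.051. Deviations from group means correlated at 0.153, −0.215, −0.217 and 0.071 in the mice with both sites; the pairing comes from the labels, which name the mouse. P-values measure the spread between these arrays. The fit was tested on simulated data. Alternatives were quantile normalization, other filters, other blocks, 1 probe set per gene, only the arrays compared, each array left out, and, chosen after seeing the data, the hybridization control split as a covariate.

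The members and gene lists were chosen with earlier results of these data known. Named are all members and up to 4 called genes per list by the size of the moderated t. Genes of counts of 5 or fewer and the basal marker KRT5 were chosen after their values were seen. Also named are the 3 genes most correlated with the leading probe set of each member that ranged over 2 log2 units.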

Additional observations from a re-analysis of the deposited data

How the results depend on the processing

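Counts of calls and the sizes of some of the family's differences both moved with the processing. Over all probe sets, quantile normalization called 256 in primary tumors (1440 as reported), 122 between sites under the pellet (1680) and 588 in the average of both sites (1256). With only the arrays compared, 4670 were called in primary tumors, 5 of the family, and 0 between sites under the pellet, 0 of the family. With mouse as a fixed block, 0 were called between sites under the pellet, 0 of the family. Without the replicate block, 1 probe set was called for the difference of responses; no family call changed. With 1 probe set per gene, 2 were called for the difference of responses, and the family had 1 call in primary tumors and 1 between sites under the pellet. With the hybridization control split as a covariate, chosen after seeing the data, the counts were 1 in lymph nodes, 8503 in primary tumors, 4411 for the difference of responses (2 of the family), 6099 and 1252 between sites under the pellet and after withdrawal (1 of the family in the latter), and 8294 in the average.

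Leaving out each array gave 0 to 2 calls in lymph nodes, 0 to 4468 in primary tumors (0 to 4 of the family), 0 to 1355 for the difference of responses (0 to 2), 29 to 4539 and 0 to 20 between sites under the pellet (0 to 3) and after withdrawal, and 0 to 3152 in the average (0 to 5). Family differences that were called kept their sign under every alternative run; of the listed genes, PTPRK between sites under the pellet went from 1.73 to −0.01 after quantile normalization. The causes were not tested. Array weights could not be fitted, since their estimation stopped before converging, with weights from 0.17 to 77.2. Signal near the bottom of the scale limits EREG, BTC and 4 of the EGFR probe sets. It also limits probe sets of ERBB2, ERBB3, ERBB4, TGFA and HBEGF, as 21 of the 33 tested had a mean below 4.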

Other observations

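The jump of the EGFR pair was shared by few probe sets. Asked after these values were seen, 10 of 35191 tested probe sets, of 9 genes, had both primary tumor E arrays at least 4 log2 units above each of the other 8 arrays, and 0 lay below them by that gap. EGFR Hs2.367845.1.S1_3p_x_at stood at rank 2 with a gap of 4.77 and Hs2.367845.1.S1_3p_at at rank 4 with 4.56. The others were OR7E2P (5.19), POLR2J4 (4.71), SLC38A2-AS1 (4.52), LRRC25 (4.49), OR7E85BP (4.43), CARD16 (4.26), CFAP157 (4.23) and FGFR1 (4.20). The probe sets of OR7E2P and OR7E85BP share a name stem, so they are not independent, as holds for the EGFR pair. FGFR1 is a receptor tyrosine kinase of another family. Of the 9 genes, 8 had several tested probe sets; in 6 of these 8, 1 probe set reached a gap of even 1 log2 unit, and in 1 all did. Probe sets with the x_at suffix made up 30% of the 10 and 11.2% of all tested.

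The neighbours of AREG, EREG and BTC in the genome gave 6 tested genes, and none was called in any of the 6 comparisons.

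The GAPDH difference between the 3′ and 5′ control probe sets, a sign of RNA length, was 3.15 and 3.73 on the primary tumor E arrays and 3.84 to 5.87 on the other 8 arrays.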
